A study of Homo sapiens with 10 samples.

Results

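The 493 peaks described here are the ERG and EWS ChIP-seq peaks whose centre lies in 1 of 11 windows of the human genome (build hg19) around centromeres or in their duplicated surroundings. They were chosen by position, out of 30301 peaks in 7 lists, with earlier results of these data known. The other 29808 peaks are the rest of the genome. The windows run over chromosome 1 from 120 to 150 Mb, chromosome 2 from 87 to 98 and from 132 to 134 Mb, chromosome 4 from 48 to 53 Mb, chromosome 7 from 56 to 66 Mb, chromosome 9 from 38 to 72 Mb, chromosome 10 from 38 to 43 Mb, chromosome 16 from 31 to 47 Mb, chromosome 20 from 25 to 30 Mb, chromosome 21 from 9 to 15 Mb and chromosome 22 from 16 to 18 Mb. Together they span 126 Mb on 10 chromosomes. ChIP-seq, in which DNA bound by a protein is pulled down with an antibody and sequenced, was carried out in 2 human prostate lines without treatment. VCaP, a prostate cancer line, gave 1 list with an antibody against ERG and 1 against EWS, and the form of its ERG is not given in the labels. RWPE1, a line from normal prostate, carried either the point mutant ERG P436A (1 ERG and 1 EWS list) or wild-type (WT) ERG (2 replicate ERG lists and 1 EWS list), stably expressed under puromycin and hygromycin selection. The sources used here do not give the promoter of the ERG construct, nor say whether the cells were 1 clone or a pool. The 3 input samples were not analysed here.

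ERG is a transcription factor of the ETS family, which binds DNA at a GGAA core and is switched on in many prostate cancers by gene fusion. EWS is an RNA-binding protein of the FET family that can act as a co-activator of transcription factors. The DNA beside human centromeres is rich in satellite repeats and in segmental duplications, which are long blocks copied almost without change to several places. Satellites II and III are built from GGAAT units, which contain the ETS core, and their largest arrays lie near the centromeres of chromosomes 1, 9 and 16. A genome build can hold fewer copies of such DNA than cells do, and short reads from it can align to several places. How reads with several alignments were handled, and which peak caller, threshold and control were used, is not given in the sources used here. The hg19 sequence was not used here, so whether a peak holds a satellite, a duplication or a GGAA core was not examined, and no gene was assigned.

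The members were unevenly spread over the windows. The chromosome 21 window held 105 of them (21.3%), the chromosome 9 window 88, the chromosome 1 window 78 and the chromosome 20 window 60. The windows of chromosome 2 held 55 and 19, chromosome 16 had 36, chromosome 4 had 22, chromosome 7 had 15, chromosome 22 had 12 and chromosome 10 had 3. Lists differed in the windows they filled, and the raw counts below come from 2 VCaP and 5 RWPE1 lists of unequal length. VCaP had 67 peaks and RWPE1 38 in the chromosome 21 window, 56 of them from the VCaP EWS list alone. All 12 peaks of the chromosome 22 window came from VCaP, and all 19 peaks of the second chromosome 2 window came from RWPE1. Of these 19, 7 were of WT ERG replicate 1 and 11 of WT EWS. On chromosome 16, 3 peaks were of VCaP and 33 of RWPE1, of which 11 were of WT ERG replicate 1 and 16 of WT EWS. Long stretches inside the windows held no peak of any list. The longest on chromosome 1 ran from 121118696 to 142535390 (21.4 Mb), on chromosome 9 from 47210177 to 66457682 (19.2 Mb) and on chromosome 16 from 33964605 to 46392574 (12.4 Mb). As background, hg19 has no assembled sequence for centromeres and for the large heterochromatin blocks of these 3 chromosomes.

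**Figure D1:**
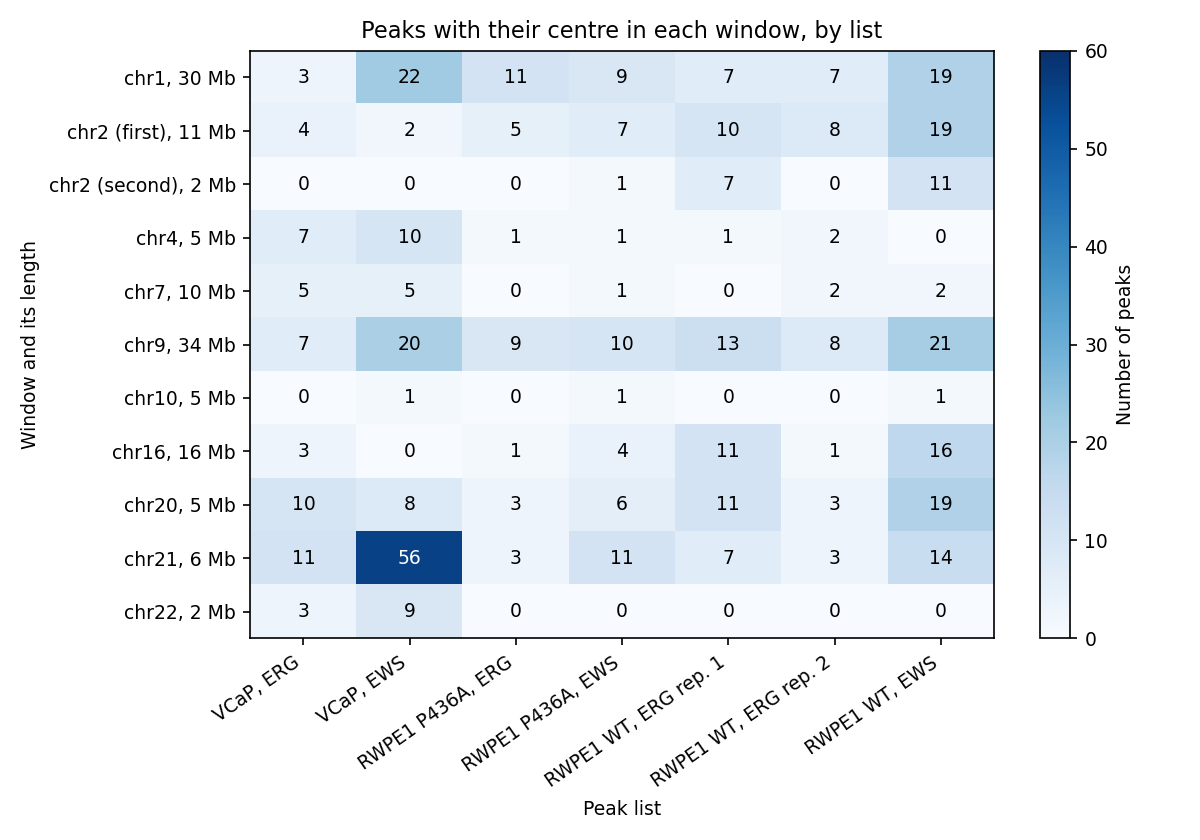
Number of peaks with their centre in each of the 11 windows (rows, with window length in Mb) for each of the 7 lists (columns). The darkest cell is VCaP EWS in the chromosome 21 window with 56 peaks, and the chromosome 22 window is filled by the VCaP lists only.

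The windows took 0.687 to 3.52% of the peaks of a list. How this compares with their share of the assembled sequence was not examined. VCaP ERG had 53 of 7712 peaks there (0.687%, exact Clopper-Pearson 95% interval 0.515 to 0.898%), and VCaP EWS had 133 of 9500 (1.40%, 1.17 to 1.66%). In P436A cells the ERG list had 33 of 1746 (1.89%, 1.30 to 2.64%) and the EWS list 51 of 1786 (2.86%, 2.13 to 3.74%). With WT ERG, ERG replicate 1 had 67 of 1901 (3.52%, 2.74 to 4.45%), ERG replicate 2 had 34 of 1953 (1.74%, 1.21 to 2.42%) and EWS had 122 of 5703 (2.14%, 1.78 to 2.55%). The intervals cover counting error only, and neither read depth nor the binding behind the length of a list can be read from the files. The intervals of the replicates did not overlap, but they count each peak as independent, and window peaks were crowded into a few places. Whether lists of the same cells and antibody differed by more than counting error was not tested. Both VCaP lists were below all 5 RWPE1 lists, with a mean share of 1.04% in VCaP and 2.43% in RWPE1, a difference of −1.39 percentage points. The exact permutation test over lists gave p = 0.0952, two-sided, which is the smallest p that 2 lists against 5 allow (adjusted p = 0.182 over the 5 tests made). The mean share was 1.96% in the 4 ERG lists and 2.13% in the 3 EWS lists, a difference of −0.17 points (exact permutation p = 0.857, smallest possible 0.0571, adjusted p = 0.857). Without the chromosome 21 window its sign turned, to 0.104 points, and without ERG replicate 1 it was −0.69 points.

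Of the lists of WT ERG cells, EWS and ERG replicate 1 opened with window peaks, and ERG replicate 2 did not. The files carry no score per peak, and the order in which they list peaks is not documented as a ranking, so it is given only as the files have it. Of the first 10 peaks listed, 9 lay in the windows in the WT EWS list and 7 in ERG replicate 1, against shares of 2.14 and 3.52% over those whole lists. Among the first 100 the counts were 23 and 16. The P436A lists had 2 (ERG) and 5 (EWS) among their first 100, and ERG replicate 2 had 1, at place 36. In VCaP, the first listed window peak stood at place 721 of the ERG list and at place 248 of the EWS list. The mean place in the list, averaged over the 7 lists, was 56.7% of the way down for window peaks and 49.9% for the rest. Window peaks stood later in 5 lists and earlier in 2, ERG replicate 1 and WT EWS (exact permutation test by sign flips of the 7 lists, p = 0.109, adjusted p = 0.182). In both of these lists an early group was thus followed by window peaks further down: replicate 1 had 16 among its first 100, 17 among its first 200 and 67 in all.

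**Figure D2:**
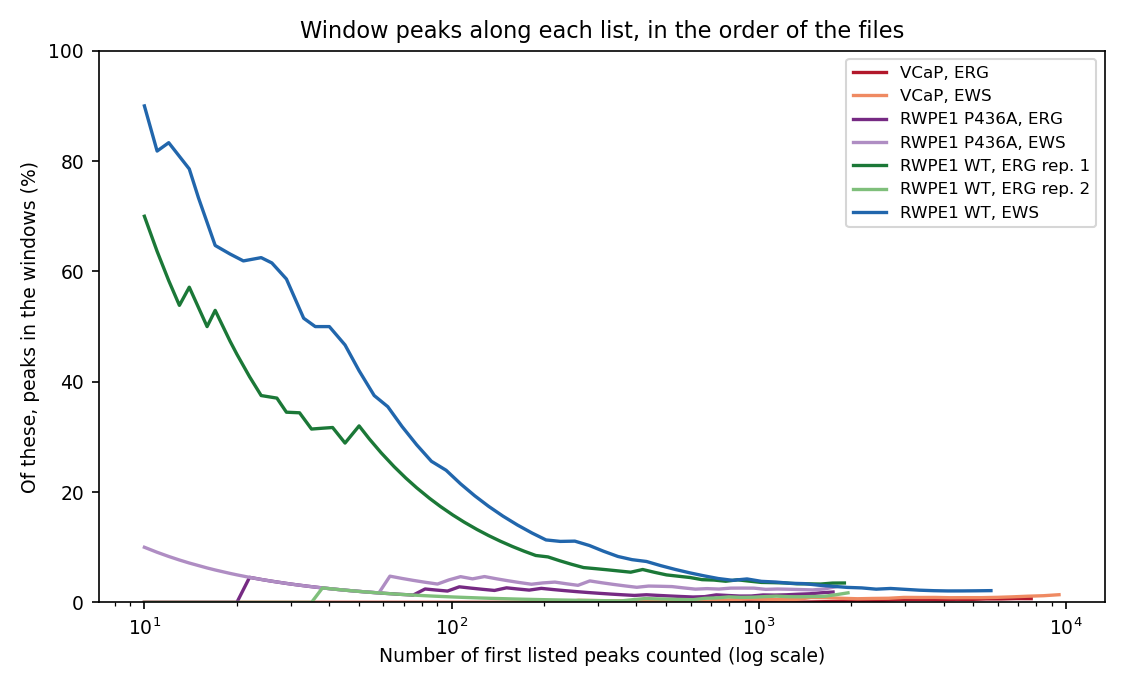
Share of window peaks (percent) among the first listed peaks of each list, against the number of peaks counted (log scale), 1 line per list. WT EWS and ERG replicate 1 start with 9 and 7 window peaks among their first 10, and the other lists have 0 or 1.

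Wide peaks were frequent among the window peaks of the same lists. Of the window peaks of ERG replicate 1, 27 of 67 (40.3%) were wider than 1000 bp, and of its other peaks 118 (6.43%). In the WT EWS list 26 of 122 window peaks (21.3%) and 90 of the others (1.61%) passed this width. Of the peaks wider than 2000 bp, 8 of 11 in replicate 1 and 11 of 17 in WT EWS lay in the windows. VCaP ERG went the other way, with 4 window peaks over 1000 bp (7.55%) against 23.1% of its other peaks, and 0 of its 477 peaks over 2000 bp lay in the windows. The median width was 731 bp in windows and 604 bp in the rest for replicate 1, 597.5 and 500 bp for WT EWS, and 642 and 719 bp for VCaP ERG. In VCaP EWS and both P436A lists no peak was wider than 501 bp, which leaves width little room to vary. Over the 7 lists the median width averaged 565 bp in windows and 542 bp in the rest, higher in 5 lists and lower in 1 (exact permutation p = 0.281, adjusted p = 0.352). The difference of 22.4 bp was 4.92 bp without replicate 1 and 119.6 bp with lists cut to equal length in listed order (exact permutation p = 0.0312, adjusted p = 0.156).

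The share of window peaks found in another list was above that of the remaining peaks in 7 of 7 lists, with an interval that excluded the rest in 3 of them, P436A EWS, ERG replicate 1 and WT EWS. A peak counted as found again if it shared 1 bp or more with any peak of the other 6 lists. In VCaP ERG this held for 11 of 53 window peaks (20.8%, 10.8 to 34.1%), against 15.3% of the rest and 15.3% of the whole list. In VCaP EWS it held for 22 of 133 (16.5%, 10.7 to 24.0%), against 12.4% of the rest and 12.4% of the whole list. Both VCaP shares thus lay close to their background, but for VCaP EWS this did not hold list by list. Its window peaks overlapped VCaP ERG less often than the rest did (4.51%, against 10.3%). They overlapped each RWPE1 list more often (2.26 to 7.52%, against 0.192 to 0.726% of the rest). In P436A cells the counts were 14 of 33 for ERG (42.4%, 25.5 to 60.8%, against 27.6% of the rest and 27.8% of the list) and 18 of 51 for EWS (35.3%, 22.4 to 49.9%, against 10.1% of the rest and 10.8% of the list). In WT ERG cells 50 of 67 window peaks of ERG replicate 1 were found again (74.6%, 62.5 to 84.5%), against 28.1% of the rest and 29.8% of the list. Replicate 2 had 11 of 34 (32.4%, 17.4 to 50.5%), against 18.9% of the rest and 19.2% of the list. WT EWS had 50 of 122 (41.0%, 32.2 to 50.3%), against 6.56% of the rest and 7.29% of the list. The mean over lists was 37.6% in windows and 17.0% in the rest, a difference of 20.6 points. The exact permutation test by sign flips gave p = 0.0156, the smallest that 7 lists allow, and an adjusted p of 0.0781, which does not pass 0.05. An overlap counts in both lists, so the 7 differences are not independent. Without ERG replicate 1 the difference was 11.4 points over the other 6 lists, and without the chromosome 21 window it was 16.9 points, higher in 5 lists and lower in 2.

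**Figure D3:**
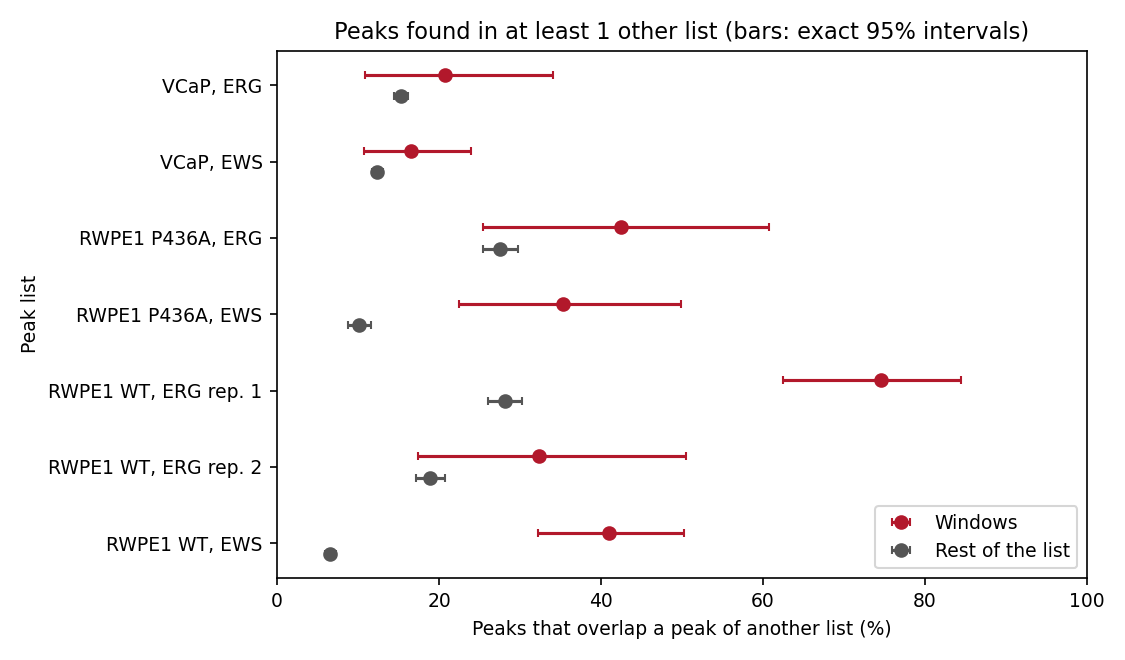
Share of peaks (percent) that overlap a peak of at least 1 other list, for window peaks and for the rest of each list, with exact 95% intervals (counting error only). The window point lies right of the rest in all 7 lists, with the widest gap for ERG replicate 1 (74.6 and 28.1%).

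When the peaks of all lists were joined wherever they overlapped, the windows held 391 regions and the rest of the genome 27537. In the windows 74 regions had peaks of 2 or more lists (18.9%), against 1949 in the rest (7.08%) and 7.24% of all regions. Of the window regions 317 came from 1 list, most often VCaP EWS (111), WT EWS (72) and VCaP ERG (42). Among combinations, ERG replicate 1 with WT EWS led with 28 regions, followed by VCaP ERG with VCaP EWS (6) and P436A ERG with WT ERG replicate 1 (5). Of the 74 regions, 56 (75.7%) held both antibodies, against 65.9% in the rest, and 20 (27.0%) held both cell lines, against 26.5%. Regions with 5 or more lists numbered 2 in the windows and 4 in the rest, 0.0215% of all regions. Both rested on wide WT EWS peaks that joined narrower ones: with peaks over 2000 bp removed, with every peak set to 500 bp, or with a reciprocal overlap of 0.5, the windows held 0 such regions.

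The region with the most lists was chr21:9825341-9828169, with 8 peaks of 6 lists, all but VCaP ERG. The WT EWS peak, of 2815 bp, spanned nearly all of it. The P436A ERG peak and a VCaP EWS peak had identical edges there, 9825380 and 9825880. The P436A EWS peak of this region, from 9825635 to 9826135, stood at place 7 of its list and was the first window peak of that list. Its WT EWS counterpart stood at place 205, and the peaks of ERG replicate 1 at places 1338 and 1408 and of replicate 2 at place 1944. At chr9:68413403-68420479, peaks of 5 lists were joined by a WT EWS peak of 7061 bp, the widest of its list. The members there were narrow P436A ERG, P436A EWS and VCaP EWS peaks of 485, 501 and 495 bp and ERG replicate 1 peaks of 1462 and 2854 bp, so not all of them overlapped each other.

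Regions with 4 lists were chr20:29588267-29589896, chr9:68430531-68432015 and chr1:144013963-144015140. In the chromosome 20 region the peaks of P436A ERG (486 bp), P436A EWS (490 bp) and ERG replicate 1 (535 bp) all lay inside the WT EWS peak, so both antibodies and both ERG forms met in 1 place, at places 187, 100, 416 and 90 of their lists. The chromosome 1 region held P436A ERG, P436A EWS, ERG replicate 2 and WT EWS, and lay late in each list. Regions with 3 lists included chr9:44070130-44071231, which was at place 1667 in VCaP ERG and at place 2 in both ERG replicate 1 and WT EWS. Another was chr2:89852630-89853870, at place 1890 in VCaP ERG, place 3 in replicate 1 and place 5 in WT EWS, and the replicate 1 and WT EWS peaks ended at the same base. The windows held 10 regions with exactly 3 lists, and the further ones with most peaks or width were chr9:68423819-68426458, chr20:29584050-29585439, chr21:11060101-11061364, chr9:68433595-68434584 and chr1:145043145-145043883.

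Some leading regions had 2 lists or 1. The first listed peak of ERG replicate 1, chr2:89874405-89875917, overlapped the first listed peak of WT EWS, chr2:89874544-89875919. At chr2:133025810-133031578 a replicate 1 peak of 5574 bp and a WT EWS peak of 5561 bp, places 4 and 3, covered nearly the same bases, and at chr16:33957367-33960763 they stood at places 5 and 6. On chromosome 4 the leading region, chr4:48129682-48130379, paired P436A ERG (place 103) with WT ERG replicate 1 (place 197). On chromosomes 7, 10 and 22 no region had more than 1 list. Their leading regions were chr7:65564298-65565670 and chr22:17639505-17640376, both of VCaP ERG, and chr10:38497435-38497972 of WT EWS.

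ERG peaks in the windows coincided with EWS peaks of the same cells more often than other ERG peaks in RWPE1, and by the widest margin in ERG replicate 1. In VCaP 6 of 53 window ERG peaks had an EWS peak (11.3%), the same share as the rest (867 of 7659, 11.3%) and the whole list (11.3%). The shares were 5.66 and 2.44% with a reciprocal overlap of 0.5, and 18.5 and 11.3% with each window narrowed by 0.5 Mb at both edges. All but 1 of the 6 VCaP overlaps lay on chromosome 21: without that window the share was 2.38%. In P436A cells 4 of 33 did (12.1%, 3.40 to 28.2%), against 34 of 1713 in the rest (1.98%) and 2.18% of the list. In WT ERG cells 42 of 67 window peaks of replicate 1 had an EWS peak (62.7%, 50.0 to 74.2%), against 134 of 1834 in the rest (7.31%, 6.16 to 8.59%) and 9.26% of the list. Replicate 2 had 5 of 34 (14.7%, 4.95 to 31.1%), against 58 of 1919 in the rest (3.02%) and 3.23% of the list. The intervals of the replicates did not overlap in the windows, nor did they in the rest (2.30 to 3.89% for replicate 2). They count peaks as independent, although window peaks were crowded into a few places. The replicate 1 share was 40.7% with peaks over 2000 bp removed (7.21% in the rest) and 44.8% with a reciprocal overlap of 0.5 (5.40% in the rest). That overlap rule gave 8.82% in replicate 2 and 6.06% in P436A cells, against 2.50 and 1.63% in the rest of those lists. With lists of equal length replicate 2 had 1 of 25 (4%), against 9 of 1721 in the rest (0.523%). Seen from EWS, 38 of 122 window peaks of the WT list overlapped replicate 1 (31.1%), against 2.42% of the rest and 3.03% of the list. Of all replicate 1 peaks shared with WT EWS, 23.9% (17.8 to 30.9%) lay in the windows, which hold 3.52% of that list.

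**Figure D4:**
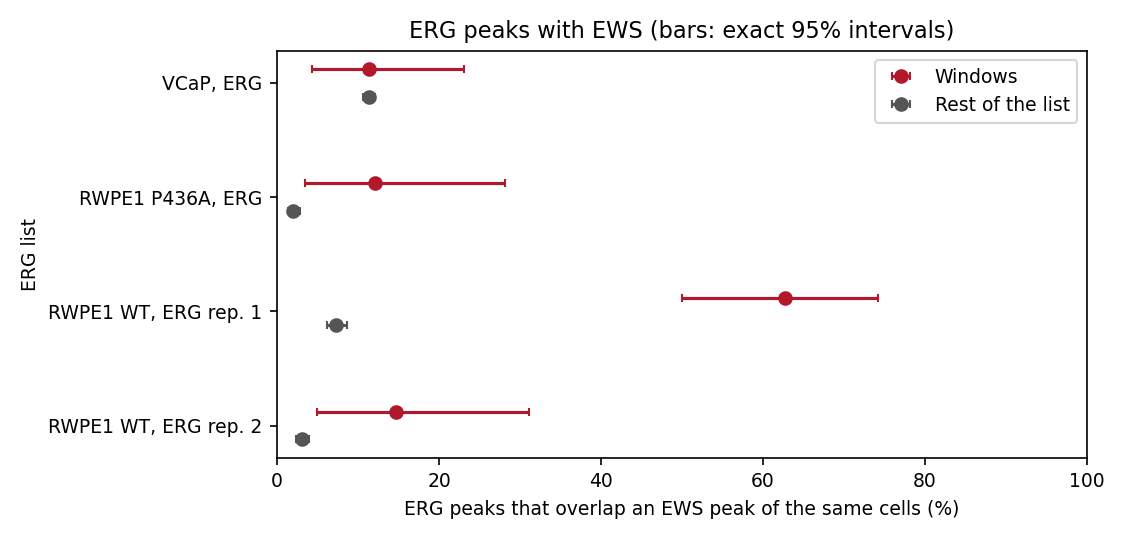
Share of ERG peaks (percent) that overlap an EWS peak of the same cells, for window peaks and for the rest, in the 4 ERG lists, with exact 95% intervals (counting error only). In VCaP the points coincide at 11.3%, and in WT ERG replicate 1 they stand at 62.7% in the windows and 7.31% in the rest.

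The coincidence was nearly complete among early listed window peaks and continued further down the lists. Of the first 20 peaks of replicate 1, 9 lay in the windows and all 9 overlapped WT EWS, against 3 of the other 11. Of the first 20 WT EWS peaks, 12 lay in the windows and all 12 overlapped replicate 1, but so did 7 of the other 8. After the first 100 listed peaks, 27 of the remaining 51 window peaks of replicate 1 overlapped WT EWS (52.9%), against 6.91% of the rest, so most of the 42 overlaps lay there. Among the 42 overlaps of replicate 1 and WT EWS in the windows, 10 shared a start or an end to the base, and the median distance between the centres was 201.5 bp. The rest of the genome had 135 such overlaps, 13 with a shared edge and a median distance of 117.5 bp.

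Between lists of the same antibody, the intervals of the ERG shares in the windows all included the share of the rest. Those of the EWS shares all lay above it, between P436A and WT cells and between cell lines. Of the P436A ERG window peaks, 7 of 33 overlapped replicate 1 (21.2%, against 12.5% in the rest and 12.7% of the list) and 3 overlapped replicate 2 (9.09%, against 7.59 and 7.62%). From the WT side, 7 of 67 replicate 1 peaks overlapped P436A ERG (10.4%, against 11.7% in the rest and 11.6% of the list) and 3 of 34 replicate 2 peaks did (8.82%, against 6.77 and 6.81%). The replicates themselves met rarely in the windows: 2 of 67 replicate 1 peaks overlapped replicate 2 (2.99%, against 6.16% in the rest and 6.05% of the list), and 2 of 34 the other way (5.88%, against 5.94% in the rest and 5.94% of the list). For EWS, 12 of 51 P436A window peaks overlapped WT EWS (23.5%, 12.8 to 37.5%), against 3.92% in the rest and 4.48% of the list. Likewise 12 of 122 WT EWS window peaks overlapped P436A EWS (9.84%, 5.19 to 16.6%), against 1.22% in the rest and 1.4% of the list. Of the VCaP EWS window peaks, 7.52% overlapped WT EWS (3.66 to 13.4%), against 0.651% in the rest and 0.747% of the list. For P436A EWS the share was 4.51% (1.67 to 9.56%), against 0.459% in the rest and 0.516% of the list. Over all 42 ordered pairs of lists, which count each pair from both sides, 33 had a higher share in the windows than in the rest. With lists cut to equal length in listed order, 20 of 42 did. No difference between pairs was tested.

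The study set P436A against WT ERG, and the WT EWS peaks that lie at a WT ERG peak of either replicate bear on that contrast. In the windows 7 of 41 such peaks overlapped a P436A EWS peak (17.1%, 7.15 to 32.1%), against 9 of 181 in the rest (4.97%, 2.30 to 9.23%) and 7.21% of all such peaks. The intervals overlapped. Of WT EWS peaks away from WT ERG, 5 of 81 in the windows (6.17%) and 59 of 5400 in the rest (1.09%) overlapped P436A EWS. The windows held 41 of the 222 WT EWS peaks at ERG and 7 of the 16 found again. The count rested on few peaks and on replicate 1: without that replicate 3 of 5 were found again (60%), and with a reciprocal overlap of 0.5 the count was 1 of 32 (3.13%).

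Within the windows the peaks were crowded into a few places. Linking members less than 100 kb apart gave 97 clusters, 40 of them a lone peak, and the 10 fullest held 254 peaks (51.5%) in 1415 kb. They took 73.1% of the window peaks of replicate 1, 60.7% of WT EWS, 52.9% of P436A EWS, 45.5% of P436A ERG, 44.4% of VCaP EWS, 38.2% of replicate 2 and 32.1% of VCaP ERG. The fullest, chr21:11027093-11183777, had 58 peaks of all 7 lists, 27 of them VCaP EWS and 12 WT EWS. A second on chromosome 21, chr21:9825341-10007624, had 29, of which 15 were VCaP EWS. At chr1:144908004-145204262 there were 31 peaks, led by WT EWS with 10, and replicate 1 had 3 there.

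Other clusters belonged mainly to ERG replicate 1 and WT EWS. The cluster chr16:33873585-33964605 held 15 peaks, 8 of replicate 1 and 7 of WT EWS, and 7 of the 8 overlapped WT EWS. At chr2:133008172-133196854, 7 of the 19 peaks were of replicate 1, 6 of them overlapping WT EWS, and 11 were WT EWS. At chr20:29582544-29653804, 8 of the 9 replicate 1 peaks overlapped WT EWS, at chr9:68394687-68434584 all 6 did and at chr2:89834000-89887505 5 of 6. Replicate 2 had 1 peak in these 5 clusters together, on chromosome 9. By contrast, chr2:91775324-91917412 had 20 peaks of all 7 lists, and none of its 2 replicate 1 peaks overlapped WT EWS. At chr9:38032160-38225957, the last of the 10, VCaP had 7 of 13 peaks, and WT EWS had none.

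**Figure D5:**
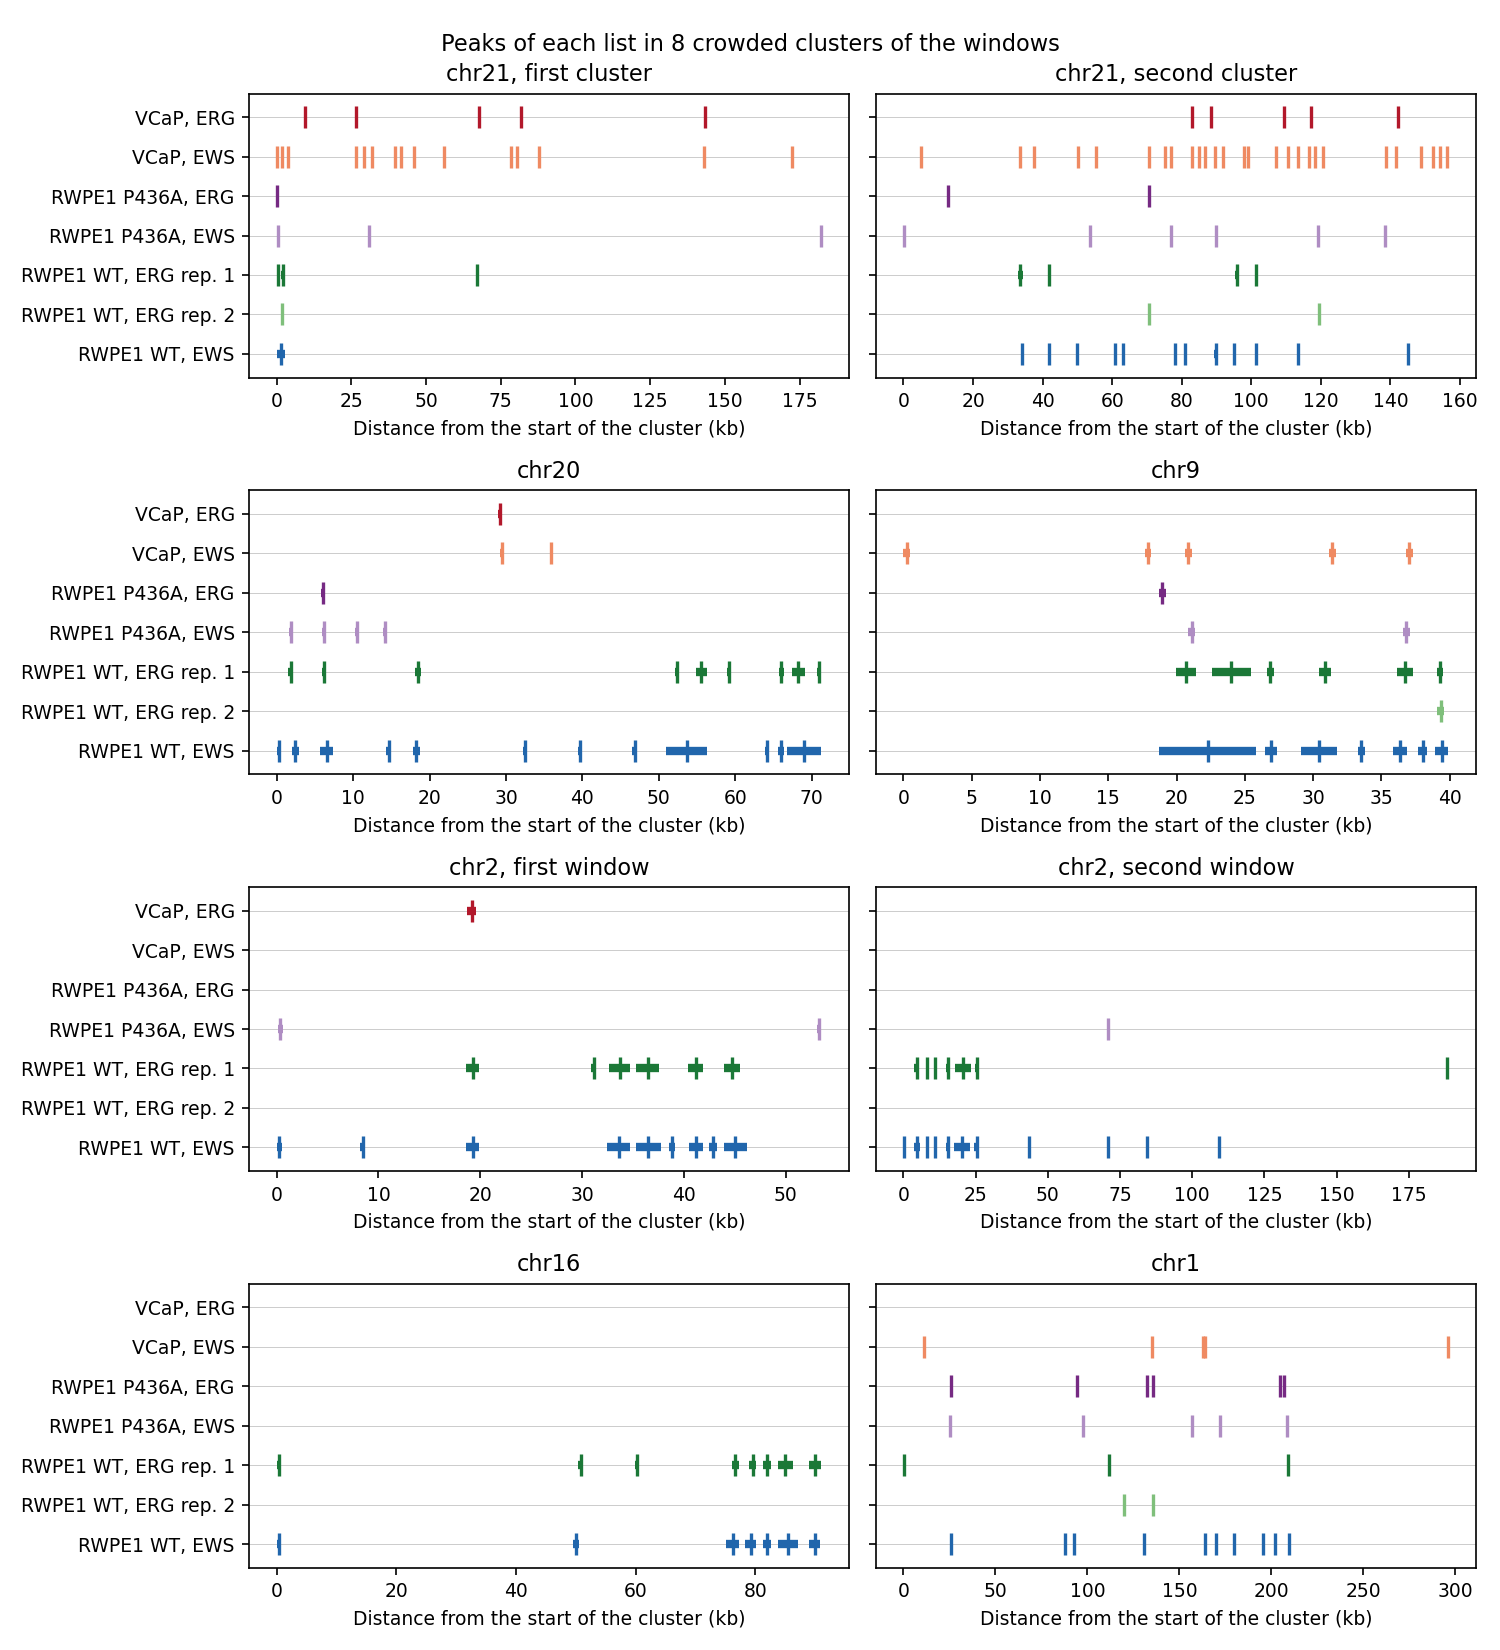
Positions of the peaks of each list (rows) in 8 crowded clusters of the windows (panels), as distance from the cluster's start in kb. Peaks of ERG replicate 1 and WT EWS recur at the same positions in the chromosome 16, 20, 2 and 9 panels, while VCaP EWS fills the chromosome 21 panels.

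Crowding was also seen within single lists. In replicate 1, 62.7% of window peaks had another peak of the same list within 10 kb, against 9.60% of the rest, and in WT EWS 53.3%, against 18.8%. P436A ERG had 24.2%, against 9.22%, P436A EWS 11.8%, against 4.27%, and replicate 2 17.6%, against 12.1%. VCaP EWS had 59.4% in the windows, against 48.0% in the rest. VCaP ERG was the only list with fewer, 22.6% against 34.1%. ERG replicate 1 and WT EWS had a high share of window peaks with a neighbour, many wide window peaks and many early listed ones. VCaP EWS had neighbours, in the windows and in the rest, without early listed window peaks. None of its peaks passed 501 bp, so that list cannot show whether neighbours occur without wide peaks. With lists of equal length the share of replicate 1 window peaks with WT EWS was 57.4%, against 3.86% in the rest. Beyond this and the settings on width given above, the part of neighbours, width and listed order in that overlap was not tested.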

How the data were processed

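Each deposited list holds a chromosome, a start and an end per peak, in base pairs, with no header or score. Reads were aligned with Bowtie2 (version given as 0.12.8) to hg19, per the submitters' processing notes. Each list belongs to 1 sample. Starts were read as 0-based, and printed positions are 1-based. The members and lists were chosen with earlier results of these data known. Peaks were shared at an overlap of at least 1 bp. Shares carry exact Clopper-Pearson 95% intervals, which treat peaks as independent. The 5 tests over lists were exact permutation tests, two-sided, with Benjamini-Hochberg adjustment. The overlap rule, the tests and the adjustment were checked on simulated data. The simulated peaks were all 500 bp wide and spaced apart, so the joining of wide or crowded peaks was not checked. The tests compare lists, not conditions, since peaks are not replicates. WT ERG in RWPE1 was the only ChIP group with replicates, 2 lists not stated to come from separate cultures. Regions named were the 12 with the most lists, the leading region of each window, and the first listed and widest window peak of each list; clusters were chosen by their number of peaks. The annotation by gene and sequence that was planned for an hg19 genome was not made. Python 3.11.15, NumPy 2.4.6, SciPy 1.17.1 and Matplotlib 3.10.9 were used. Alternatives varied the overlap rule, the windows, peak width, list length and the replicates.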

Additional observations from a re-analysis of the deposited data

How the results depend on the processing

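Over 13 alternative settings, the difference in share with another list ranged over 11.4 to 24.6 points. That in listed position ranged over 4.75 to 9.71 points, and that in window share of VCaP minus RWPE1 over −2.00 to −1.03 points. All kept their direction on average, and no adjusted p passed 0.05. The overlap rules and the set width of 500 bp cannot change window share or listed position. For VCaP minus RWPE1 no setting could pass 0.05, since 2 lists against 5 allow no p below 0.0952. The median width difference ranged over 4.92 to 119.6 bp, leaving out peaks set to 500 bp, where it must be 0. The ERG minus EWS difference reversed to 0.104 points without the chromosome 21 window, a setting chosen after seeing the data (exact permutation test, adjusted p = 0.971; range over settings 0.5 to 1). With the ERG and EWS lists of the same cells paired, also chosen after seeing the data, it was −0.39 points, lower in 2 of 3 pairs (exact permutation p = 0.5, smallest possible 0.25). Window regions with 5 or more lists numbered 0 with a reciprocal overlap of 0.5, centres within 500 bp, peaks over 2000 bp removed, peaks set to 500 bp or lists of equal length, 1 without the chromosome 9 or the chromosome 21 window, and 1 to 2 when leaving out each replicate. Pairs with a higher share in the windows numbered 20 of 42 with lists of equal length. WT EWS peaks at WT ERG found with P436A made up 3.13% with a reciprocal overlap of 0.5, and 13.2 to 60% when leaving out each replicate. The causes were not tested. By replicate number, no paired analysis was possible because no 2 of the ChIP groups share more than 1 replicate number. Replicate numbers could thus not serve as a block, and the pairing of ERG with EWS lists given above was by cells. Read depth is unknown, so how it limits the shares was not tested.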

Other observations

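Several clusters outside the 10 fullest held mostly or only peaks of 1 line, with no test made. In VCaP, 10 of the 11 peaks at chr21:9647781-9723632 were EWS peaks, as were 8 of the 10 peaks at chr4:49174457-49323783, 7 of 10 at chr1:143385622-143541891 and 6 of 8 at chr1:142535390-142641200. The last cluster begins at the end of the empty stretch of chromosome 1, and the first listed VCaP EWS window peak, chr1:142536147-142536634, lies in it. All 8 peaks at chr22:17320494-17640376 were of VCaP, 3 ERG and 5 EWS. In RWPE1, all 8 peaks at chr9:71062197-71347721 and all 7 at chr9:71866886-71984191 were of that line, 6 of the last 7 from WT EWS. At chr9:67292907-67340176 the 6 peaks were 3 of P436A ERG, 2 of WT ERG replicate 1 and 1 of replicate 2, with no EWS peak.

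Summed over lists and edges, the last 1 Mb inside the windows held 209 peaks and the first 1 Mb outside held 232. Lists differed, with 12 inside and 27 outside for P436A ERG, 19 and 14 for P436A EWS, and 13 and 22 for ERG replicate 2. The counts were 28 and 23 for ERG replicate 1, 47 and 43 for WT EWS, and 52 and 54 for VCaP EWS. VCaP ERG had 38 of its 53 window peaks in the last 1 Mb inside, and 49 peaks outside. With each window narrowed by 0.5 Mb at both edges, 27 VCaP ERG peaks remained (0.350% of that list).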
